A study of Mus musculus with 18 samples.

Results

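DN1 cells sorted from control mouse thymus were set against total thymocytes of control mice. The comparison took 6 of the 18 arrays of the series, chosen by their labels: both control DN1 arrays and all 4 control arrays of total thymocytes. All of these cells came from C57BL/6 mice that carried no engineered allele in the labels and had been given an isotype control antibody 2 weeks earlier. DN1 cells had been sorted as CD4-CD8-CD44+CD25-, while total thymocytes were unsorted. The 12 other arrays held cells of anti-DLL4 mice and control DN cells (CD4-CD8-), and entered only as part of the shared estimate of spread and, for control DN cells, as levels set beside these groups. The description of the study names 3 control thymocyte samples and the labels give 4; all 4 were used. Thymi of 4 control animals were harvested, and no source ties an array to an animal or says whether DN1 replicate 1 came from the same mice as thymocyte replicate 1, so the p-values measure the spread between these samples, which may share animals or be technical.

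T cells are made in the thymus from blood-borne progenitors that arrive without CD4 or CD8. Cells of the CD44+CD25- gate include the earliest T-lineage progenitors, which carry KIT and still hold other lineage options, and signals through Notch receptors then drive them to the later double-negative stages. As the labels give it, the gate excludes only CD4 and CD8 among lineage markers. Thymic B cells, NK and innate lymphoid cells, gamma-delta T cells and many dendritic cells also lack both and carry CD44, so they can lie inside it. Most of a whole thymus consists of double-positive thymocytes, which carry both CD4 and CD8 and rearrange the T-cell receptor alpha locus with the RAG recombinase.

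Among the genes that were higher in DN1 cells were 5 of the 11 tested genes of MHC class II, the molecules that present peptides to CD4 T cells. Their promoters are known for a conserved run of boxes bound by RFX, CREB and NF-Y, on which the class II transactivator sits. The box nearest the gene is the Y box, an inverted CCAAT sequence bound by NF-Y. The Y box core GATTGG was 1 of 8 motifs searched on both strands of the 250 bases before the start site in the RefSeq promoter table of GRCm38.p6, and it was picked for display after all 8 had been counted. It lay in at least 1 promoter window of each of the 8 class II genes matched in the table, of 11 tested (H2-DMa has 2 windows, 1 of them without it), against 19.9% of the 13883 tested genes with a promoter. The longer letters CTGATTGG, which contain that core, lay in 4 of these 8 and in 5.47% of all. The windows of the 4 called genes with an entry, and of H2-DMb1, which was not called, are given with the core in capitals. They lie at chr17:34287830-34287909 (minus strand), chr17:34305770-34305849, chr17:34145121-34145200, chr17:34238810-34238889 and chr17:34153092-34153171 (plus strand).
H2-Aa: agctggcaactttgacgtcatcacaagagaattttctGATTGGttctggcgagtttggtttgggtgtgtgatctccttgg
H2-Eb1: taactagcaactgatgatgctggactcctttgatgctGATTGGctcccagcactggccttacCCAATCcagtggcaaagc
H2-DMb2: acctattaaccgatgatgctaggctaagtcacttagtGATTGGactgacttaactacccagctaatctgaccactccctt
H2-Ob: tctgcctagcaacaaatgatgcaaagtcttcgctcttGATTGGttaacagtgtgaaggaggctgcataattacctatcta
H2-DMb1: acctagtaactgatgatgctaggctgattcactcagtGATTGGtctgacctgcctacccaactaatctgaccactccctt
The core ended 44 bases before the start site in H2-Aa, 55 in H2-Eb1, 86 in H2-DMb2, 53 in H2-Ob and 57 in H2-DMb1. In H2-DMa, not shown, it ended 194 bases before the start site. H2-Eb1 holds a copy on the other strand as well, read here as CCAATC. A match of letters is a description and shows no binding. Of the other motifs, the E box CAGGTG, letters that E proteins bind, lay in 9 of 16 promoters of B-cell genes against 19.3% of all, and the interferon-stimulated response element in 5 of 14 promoters of interferon-response genes against 0.303%. The letters tried for PU.1 (GAGGAAGT) and for KLF or SP factors (CCCCTCCC), and the EBF1 and NF-kappaB motifs, lay in at most 1 of the 8 class II promoters, against 2.67%, 15.6%, 1.05% and 0.223% of all.

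The arrays were of unequal strength. The 75th percentile of processed signal was 2643.1 and 1831.7 on the DN1 arrays and ranged over 524.0 to 2468.1 on the thymocyte arrays, where replicates 1 and 2 were the dimmest. Spots well above background made up 84.0% and 74.6% in DN1 cells, against 68.8% to 75.7% in thymocytes. A level below is log2 of the processed signal minus that of the array's 75th percentile, so 0 marks a spot as bright as the percentile. The DN1 arrays lay on slides 3 and 5 and the thymocyte arrays on slides 1, 2, 4 and 6, so no slide held both populations. In the linear model over 21159 genes, 323 passed a Benjamini-Hochberg adjusted p under 0.05 (limma), which is 1.53% of them: 212 higher in DN1 cells (1.00%) and 111 lower (0.525%). At an unadjusted p under 0.05 there were 3118. With the slide as a fixed block 16 genes were called, 14 higher and 2 lower, of which 15 were among the 323. The median gene differed by -0.41 log2 units, and every difference below is given relative to that median, while calls come from the unshifted values. Called genes therefore started at 2.65 on the higher side and at -1.51 on the lower side. Array replicates correlated at 0.904 within DN1 cells and at 0.899 to 0.922 within thymocytes, against 0.849 to 0.903 between the populations. Without regard to any test, both DN1 arrays lay above all thymocyte arrays for 1927 genes (9.11%) and below all of them for 4864 (23.0%), and all 323 called genes were among these.

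**Figure D1:**
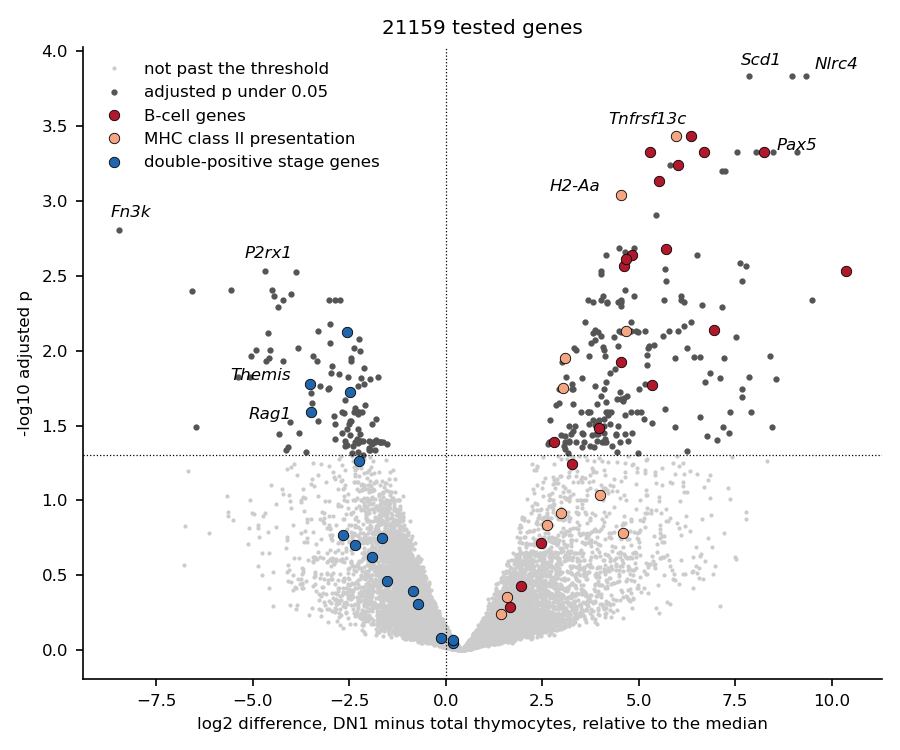
Each point is 1 of the 21159 tested genes: the horizontal axis gives the log2 difference, DN1 minus total thymocytes, from the all-gene median, and the vertical axis -log10 of the adjusted p, with the threshold of 0.05 as a dotted line. The 323 genes above the line divide into 212 on the right and 111 on the left, and 16 B-cell genes lie above it on the right and 4 double-positive stage genes on the left. The lowest point of the cloud lies right of 0 because p comes from the unshifted difference.

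The sort was checked first on its own markers and on Kit, Rag1 and Cd79a. Cd44, the adhesion receptor used in the gate, had levels of 3.07 and 2.40 in DN1 cells, against 0.43, -0.14, -0.21 and 0.50 in thymocytes. Its DN1 levels lay above every thymocyte level, by 3.00 ± 0.49 log2 units (adjusted p = 0.0119); of its 3 probes, 2 were higher and 1 lower. Kit, the stem-cell factor receptor of early progenitors, stood at 1.31 and 1.69 in DN1 cells, against -2.77, -2.49, -3.49 and -1.06 in thymocytes. It was higher by 4.36 ± 0.69 log2 units (adjusted p = 0.00813), with 3 of 4 probes higher and no overlap between groups. Cd8a, which encodes a chain of the CD8 excluded by the gate, had levels of 3.60 and 4.59 in DN1 cells, against 6.33, 7.84, 6.75 and 6.52 in thymocytes. The groups did not overlap, and the difference of -2.35 ± 0.99 log2 units (adjusted p = 0.197) did not pass the threshold. Rag1, a subunit of the recombinase, was lower in DN1 cells, at 0.21 and 1.46 in DN1 cells, against 5.82, 4.56, 4.53 and 3.99 in thymocytes (-3.48 ± 0.82 log2 units, adjusted p = 0.0258). Cd79a, a signalling chain of the B-cell receptor, had levels of -2.74 and -3.47 in DN1 cells, against -3.83, -4.73, -4.99 and -5.06 in thymocytes. The groups lay apart and the difference of 1.96 ± 0.77 log2 units (adjusted p = 0.371) did not pass. Cd4 and Il2ra, whose products the gate also excluded, had overlapping groups and differed by -0.12 and -0.13 (adjusted p = 0.825 and 0.768). The Cd4 probe was well above background on all 6 arrays but had low levels, at -2.94 and -3.97 in DN1 cells, against -2.43, -3.34, -3.13 and -2.82 in thymocytes. Of the genes of the gate's own markers only Cd44 thus passed, in the direction the label of DN1 cells says. The label names neither Kit nor Rag1. Cd8a RNA was still well above background on both DN1 arrays. With the slide as a fixed block the calls of Cd44, Kit and Rag1 did not hold (limma adjusted p 0.118 to 0.42). Nor did they hold without both dimmer thymocyte arrays (0.0653 to 0.168) or in a fit of the 6 arrays alone (0.0648 to 0.0921). Without DN1 replicate 1 the calls of Cd44, Kit and Rag1 were lost (adjusted p 0.12 to 0.38), as they were without DN1 replicate 2 (0.074 to 0.114), and that of Rag1 also without thymocyte replicate 1, 2 or 3 (0.0658, 0.0507 and 0.0507).

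**Figure D2:**
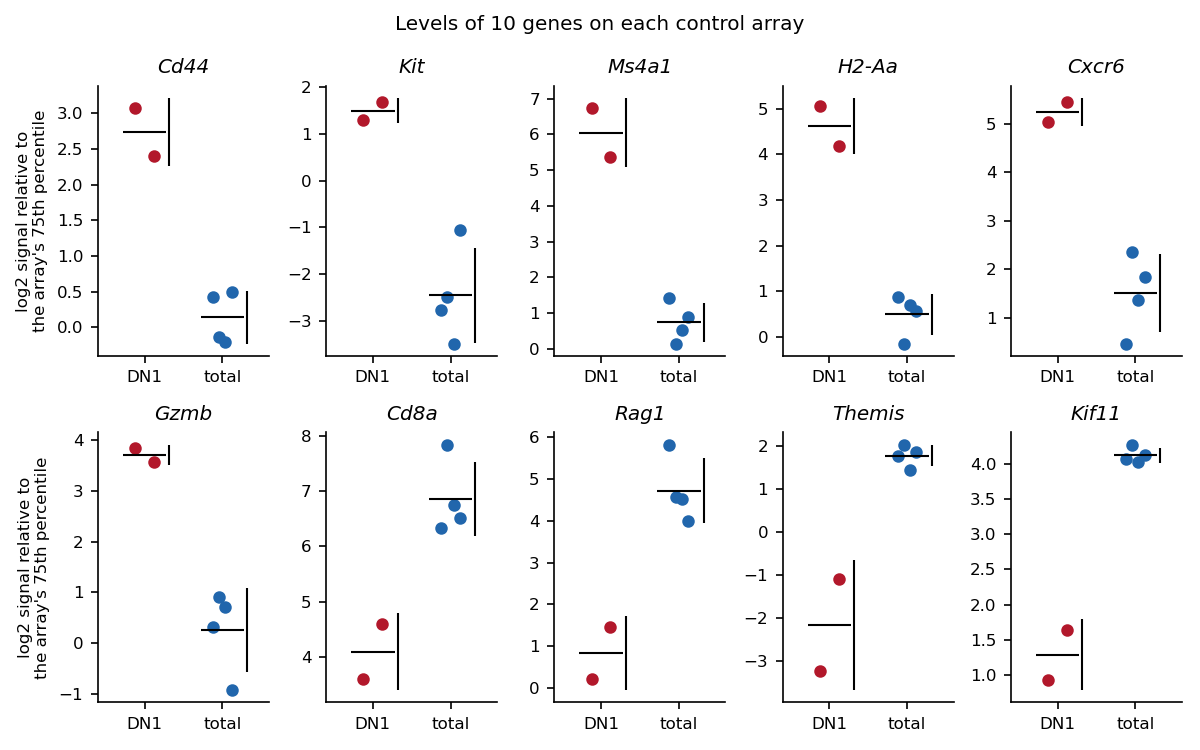
Points are single control arrays of DN1 cells (red, left) and total thymocytes (blue, right); the vertical axes give log2 signal relative to each array's 75th percentile, horizontal bars are group means and vertical bars 1 SD. In each of the 10 panels the 2 DN1 arrays lie outside the range of the 4 thymocyte arrays, above it for the first 6 genes (Cd44 to Gzmb) and below it for Cd8a, Rag1, Themis and Kif11.

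B-cell genes were the list with the most calls. Of its 20 tested members 16 were higher in DN1 cells and none was lower, beside 1.00% and 0.525% of all genes, and the list's median difference was 5.06 log2 units, where that of all genes is 0 by construction. The 1 other listed gene was not among those tested. Thymic B cells are a resident population of the normal thymus, and the list was chosen with earlier results of these arrays known. Both DN1 arrays lay above all thymocyte arrays for 19 of the 20 members, beside 9.11% of all genes. In bulk RNA, fewer cells of a type and less RNA per cell cannot be told apart.

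Surface and signalling genes of mature B cells were measured on most arrays of both groups. Ms4a1, which encodes CD20, stood at 6.73 and 5.37 in DN1 cells, against 1.42, 0.15, 0.52 and 0.89 in thymocytes, higher by 5.72 ± 0.73 log2 units (adjusted p = 0.00209). Each DN1 level exceeded every thymocyte level. Tnfrsf13c encodes the receptor for the survival cytokine BAFF; its levels were 4.47 and 3.54 in DN1 cells, against -2.84, -1.27, -2.83 and -0.82 in thymocytes, a difference of 6.36 ± 0.64 log2 units (adjusted p = 0.00037). Cr2, the complement receptor CD21 of mature B cells, had levels of 4.43 and 4.01 in DN1 cells, against -6.43, -0.81, -8.06 and -7.62 in thymocytes, and thymocyte replicate 2 was the only thymocyte array well above background. Its difference was 10.36 ± 1.47 log2 units (adjusted p = 0.00294), and without that array it was at least 2360-fold higher; its other probe differed by 0.40. Cd22 and Cd72, inhibitory receptors, were higher by 6.01 ± 0.67 log2 units (adjusted p = 0.000578) and 4.82 ± 0.62 log2 units (adjusted p = 0.0023). Fcer2a, the low-affinity IgE receptor CD23, was higher by 6.96 ± 1.12 log2 units (adjusted p = 0.00733). Fcmr, the Fc receptor for IgM, was higher by 4.68 ± 0.61 log2 units (adjusted p = 0.00245), and Fcrla, an intracellular Fc-receptor-like protein of B cells, by 5.30 ± 0.57 log2 units (adjusted p = 0.00047).

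Transcription factors that set up and hold B-cell identity were among the called genes. Pax5 had levels of 0.69 and -0.76 in DN1 cells, against -7.87, -7.42, -7.33 and -8.88 in thymocytes. This probe was well above background on both DN1 arrays and on no thymocyte array, so it was at least 113-fold higher in DN1 cells (adjusted p = 0.00047). It entered the test through the DN1 arrays alone; the other Pax5 probe differed by 0.85 log2 units. Ebf1, which acts with Pax5, stood at 0.18 and -0.96 in DN1 cells, against -6.28, -6.65, -5.69 and -8.07 in thymocytes and was higher by 6.69 ± 0.71 log2 units (adjusted p = 0.00047), with 1 of the 4 thymocyte arrays well above background. Neither gene's groups overlapped. Spib, an Ets factor of B cells and plasmacytoid dendritic cells, differed by 3.27 ± 0.70 log2 units (adjusted p = 0.0567) and did not pass. Genes of B-cell precursors were not called: of the 6 tested, none passed, and Vpreb3, a partner of the pre-B-cell receptor, differed by 3.33 ± 1.09 log2 units (adjusted p = 0.224).

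Of 19 tested Src, Syk and Tec kinases and linkers, which act below the antigen receptors, 6 were higher and none lower, beside 1.00% and 0.525% of all genes. The differences of 8 lay below the all-gene median, and the list's median was 0.76 log2 units, but -0.22 with normexp background correction. The kinases were Blk (4.63 ± 0.61 log2 units, adjusted p = 0.0027), Lyn (3.39 ± 0.54 log2 units, adjusted p = 0.00983), Syk (3.30 ± 0.60 log2 units, adjusted p = 0.0229) and Btk (5.35 ± 0.98 log2 units, adjusted p = 0.0168). The linkers were Blnk (3.97 ± 0.79 log2 units, adjusted p = 0.0329) and Lat2 (4.96 ± 0.96 log2 units, adjusted p = 0.0258). Btk levels were 3.63 and 2.79 in DN1 cells, against -2.42, -3.55, -1.55 and 0.62 in thymocytes, so the groups lay apart, though thymocyte replicate 4 was closer to DN1 cells than the others were. Bank1, a scaffold that couples the B-cell receptor to these kinases, was higher by 4.53 ± 0.77 log2 units (adjusted p = 0.0119). Lck and Lat, the Src kinase and the linker of the T-cell receptor, differed by -0.88 ± 0.60 log2 units (adjusted p = 0.333) and -1.37 ± 0.70 log2 units (adjusted p = 0.243), and neither passed. Of 8 ITAM-bearing adaptors, which carry the tyrosine motif these kinases act on, only Cd79b was called, at 7.20 and 6.78 in DN1 cells, against 4.96, 4.75, 4.24 and 4.42 in thymocytes (2.81 ± 0.55 log2 units, adjusted p = 0.0408). Tyrobp and Fcer1g, the adaptors of NK and myeloid receptors, differed by 1.26 and 0.81 without passing, and Fcer1g by -0.16 with normexp background correction.

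Without DN1 replicate 1, 6 of the 16 B-cell calls held (Cd22, Pax5, Ebf1, Fcrla and Tnfrsf13c among them; the lost ones had an adjusted p of 0.0802 to 0.406). Without DN1 replicate 2, 12 held, with Cd79b, Blnk, Bank1 and Btk lost (0.0762 to 0.195). Of the 6 kinases and linkers none held without DN1 replicate 1 (0.0892 to 0.421), and Lyn and Blk held without DN1 replicate 2 (0.0502 to 0.161 for the others). Leaving out thymocyte replicates cost Cd79b with each (0.0585 to 0.097), Lat2 without replicate 1 or 2 (0.0612 and 0.0634), Syk without replicate 2 (0.0614) and Blnk without replicate 4 (0.0508). With the slide as a fixed block 4 of the 16 B-cell calls held, Pax5, Ebf1 and Tnfrsf13c among them (0.0523 to 0.388 for the lost ones), and none of the 6 kinases and linkers (0.0814 to 0.388). Without both dimmer thymocyte arrays 14 of the 16 B-cell calls held, but of the 6 kinases and linkers only Blk and Blnk (limma adjusted p 0.0844 to 0.197 for the others). The 6 arrays alone kept 10 of the 16 B-cell calls, and of the 6 kinases and linkers only Blk.

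MHC class II genes were the other antigen-presenting group. Of 11 tested, 5 were higher in DN1 cells and none lower, beside 1.00% and 0.525% of all genes. The median difference was 3.10 log2 units, and both DN1 arrays lay above all thymocyte arrays for 9 of the 11, beside 9.11% of all genes. H2-Aa, the alpha chain of the I-A molecule, had levels of 5.05 and 4.19 in DN1 cells, against 0.88, -0.15, 0.70 and 0.56 in thymocytes, and was higher by 4.54 ± 0.52 log2 units (adjusted p = 0.000915). Its partner H2-Ab1 stood at 6.94 and 6.35 in DN1 cells, against 4.67, 4.30, 3.77 and 3.08 in thymocytes (3.10 ± 0.50 log2 units, adjusted p = 0.0113). H2-Eb1, the beta chain of the I-E molecule, stood at 7.40 and 7.00 in DN1 cells, against 5.29, 4.47, 4.41 and 4.16 in thymocytes (3.03 ± 0.52 log2 units, adjusted p = 0.0178). The groups lay apart for all 3 chains. H2-DMb2, a chain of the peptide exchanger H2-M, had levels of 0.68 and -0.51 in DN1 cells, against -5.44, -4.99, -5.34 and -6.10 in thymocytes, a difference of 5.96 ± 0.59 log2 units (adjusted p = 0.00037). Its close paralog H2-DMb1, whose promoter window resembles it above, differed by 2.62 and did not pass, and a probe may read both paralogs. H2-Ob, a chain of the B-cell modulator H2-O, was higher by 4.66 ± 0.73 log2 units (adjusted p = 0.00737). Ciita, the class II transactivator, differed by 4.60 ± 1.39 log2 units (adjusted p = 0.165), and Cd74, the invariant chain, by 1.59 ± 0.66 log2 units (adjusted p = 0.438); neither passed. Ifi30, a lysosomal thiol reductase of antigen processing, was the 1 of 18 lysosomal genes called, higher by 3.53 ± 0.61 log2 units (adjusted p = 0.0151). Without DN1 replicate 1 only H2-DMb2 of these 6 kept its call (0.0531 to 0.283 for the others), and without DN1 replicate 2 H2-Aa, H2-DMb2 and H2-Ob (0.0762 to 0.119); with the slide as a fixed block none did (0.0523 to 0.402).

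Chemokine receptors, which steer cells through tissue, were higher in 5 of 16 tested cases and lower in none, beside 1.00% and 0.525% of all genes (1 more listed gene was not tested). Cxcr5, the receptor that guides B cells to follicles, had levels of 5.41 and 4.16 in DN1 cells, against 0.31, -0.16, -1.95 and -0.64 in thymocytes, higher by 5.81 ± 0.64 log2 units (adjusted p = 0.000578). Cxcr6, carried by innate-like T cells and innate lymphoid cells, stood at 5.05 and 5.45 in DN1 cells, against 0.46, 2.36, 1.37 and 1.83 in thymocytes, higher by 4.16 ± 0.53 log2 units (adjusted p = 0.0023). Both kept their calls when any 1 of the 6 arrays was left out. Ccr6, of B cells and type 17 cells, was higher by 6.44 ± 1.11 log2 units (adjusted p = 0.0109). Ccr2, of monocytes and some progenitors, was higher by 4.14 ± 0.69 log2 units (adjusted p = 0.0109) and Ccr10 by 4.79 ± 0.75 log2 units (adjusted p = 0.00737), each with 1 thymocyte array not well above background. With normexp background correction the call of Ccr10 was lost (limma adjusted p = 0.255). Ccr9, which draws progenitors into the thymus and is also high on double-positive cells, differed by -1.53 ± 0.93 log2 units (adjusted p = 0.346), and Ccr7, the other homing receptor of thymic entry, by 0.31; neither passed. Without DN1 replicate 1 or 2 the calls of Ccr6, Ccr2 and Ccr10 were lost (0.139 to 0.237 and 0.0584 to 0.139), and with the slide as a fixed block none of the 5 held (0.102 to 0.347).

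**Figure D3:**
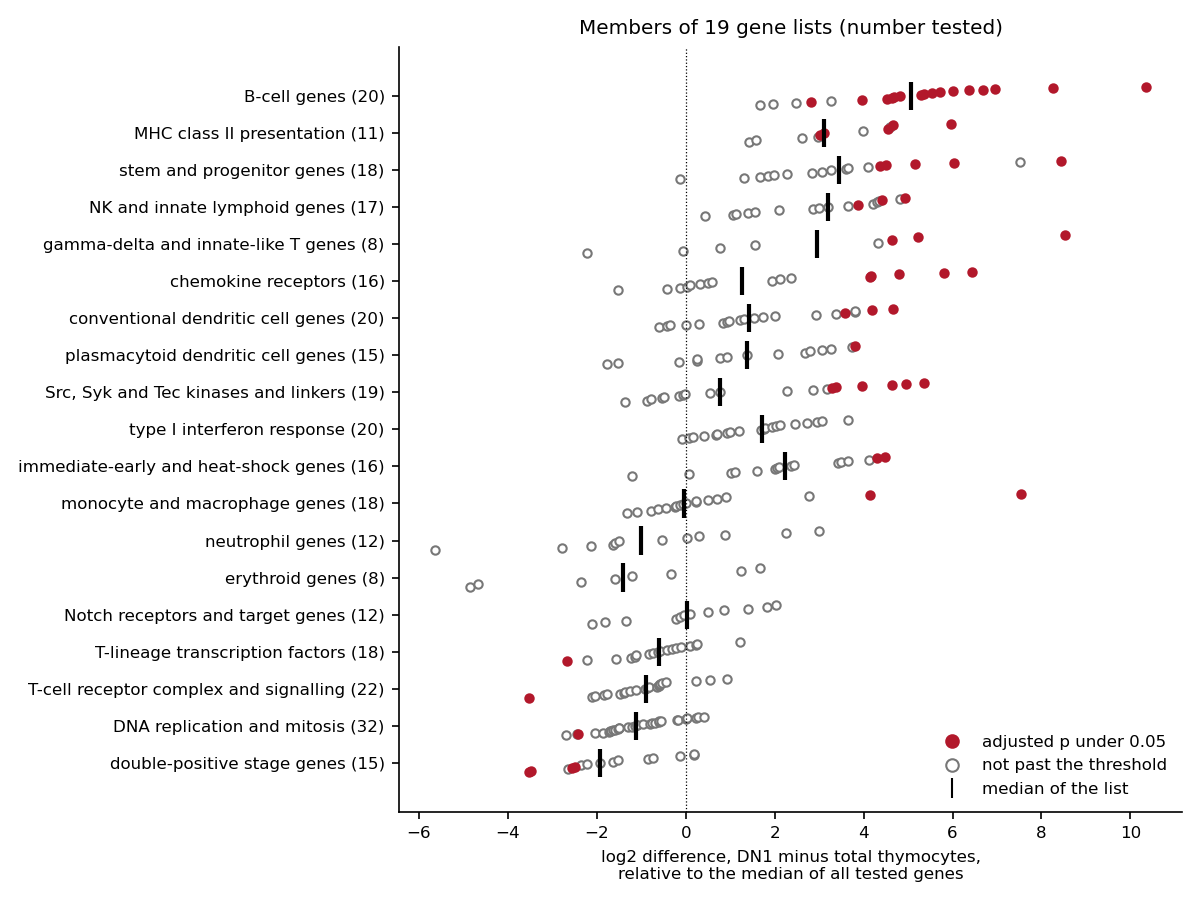
Each row is a gene list with its number of tested members, each point 1 member at its log2 difference (DN1 minus total thymocytes, from the all-gene median); red points passed an adjusted p of 0.05 and black bars are medians. B-cell genes have the highest median (5.06) and double-positive stage genes the lowest (-1.92), and the lists of interferon, neutrophil, erythroid and Notch genes hold no red point.

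Of 18 tested genes of blood stem cells and early progenitors 5 were higher in DN1 cells and none lower, beside 1.00% and 0.525% of all genes. Their median was 3.44, and the DN1 arrays lay above all thymocyte arrays for 13, beside 9.11% of all genes. Besides Kit the called genes were transcription factors. Bcl11a, which B-lymphoid and early progenitors need, had levels of 5.09 and 3.88 in DN1 cells, against 0.53, 0.13, -2.63 and 0.95 in thymocytes (5.16 ± 0.82 log2 units, adjusted p = 0.00737). Hhex, a homeobox factor of progenitors and B cells, stood at 2.23 and 2.26 in DN1 cells, against -4.95, -1.14, -5.05 and -2.33 in thymocytes (6.03 ± 0.96 log2 units, adjusted p = 0.00737). The smallest difference among its 3 probes was 0.48. Lmo2, a bridging factor of stem-cell complexes, stood at -1.93 and -2.48 in DN1 cells, against -6.13, -5.06, -7.17 and -6.79 in thymocytes (4.50 ± 0.70 log2 units, adjusted p = 0.00736). Mef2c, a factor of lymphoid and myeloid progenitors, had levels of 2.91 and 0.23 in DN1 cells, against -7.91, -8.09, -7.90 and -1.92 in thymocytes, and only replicate 4 of the thymocyte arrays was well above background. Its difference was 8.44 ± 1.77 log2 units (adjusted p = 0.0321), and without that array it was at least 359-fold higher. Members that did not pass included Lyl1 (2.83 ± 0.65 log2 units, adjusted p = 0.0823), a partner of LMO2, Cd34 (3.66), and Hoxa9, for which no thymocyte array was well above background and the bound was at least 3.6-fold. Cpa3, a protease of mast cells that early thymic progenitors also express, had levels of 4.27 and 4.68 in DN1 cells, against 1.25, 0.16, 0.14 and 1.87 in thymocytes. It was higher by 4.03 ± 0.74 log2 units (adjusted p = 0.0201), while none of the 8 other mast-cell and basophil genes passed. Of these 6 called genes none kept its call without DN1 replicate 1 (0.12 to 0.406) and only Bcl11a without DN1 replicate 2 (0.0596 to 0.198 for the others). Mef2c was also lost without thymocyte replicate 1, 2 or 3 (0.0802, 0.0801 and 0.0781) and Cpa3 without replicate 2 or 3 (0.0532 and 0.0551). With the slide as a fixed block none of the 6 held (0.0951 to 0.437).

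Genes of NK cells, innate lymphoid cells and innate-like T cells formed a further group. Of 17 NK and innate lymphoid genes tested, of 18 listed, 3 were higher and none lower, beside 1.00% and 0.525% of all genes. The median difference was 3.21, and DN1 arrays lay above all thymocyte arrays for 11, beside 9.11% of all genes. Gzmb, the cytotoxic protease granzyme B, had levels of 3.85 and 3.57 in DN1 cells, against 0.32, 0.91, 0.71 and -0.93 in thymocytes (3.87 ± 0.59 log2 units, adjusted p = 0.00733). Klre1, an NK lectin-like receptor, stood at -1.27 and -0.91 in DN1 cells, against -5.63, -4.35, -7.53 and -4.90 in thymocytes (4.92 ± 0.77 log2 units, adjusted p = 0.00737) with a probe of either sign. Klrc1, which encodes the inhibitory receptor NKG2A, was higher by 4.41 ± 0.90 log2 units (adjusted p = 0.0367); both were well above background on 2 of the 4 thymocyte arrays. Members of this receptor family resemble each other, so 1 probe may read several. Klrd1, the partner of NKG2A, differed by 2.99 ± 0.63 log2 units (adjusted p = 0.053) and did not pass. Of 8 gamma-delta and innate-like T genes tested, of 14 listed, 3 were higher and none lower, beside the same all-gene shares: Blk, Il18r1 and Il1r1. Il18r1, the interleukin-18 receptor, stood at 3.29 and 3.30 in DN1 cells, against -0.74, -3.88, -0.43 and -1.0 in thymocytes (5.22 ± 0.88 log2 units, adjusted p = 0.0107). Il1r1, the interleukin-1 receptor of type 17 cells, had levels of 1.61 and 1.02 in DN1 cells, against -7.72, -8.43, -9.51 and -1.60 in thymocytes. Il1r1 was higher by 8.54 ± 1.59 log2 units (adjusted p = 0.0155), and at least 301-fold higher without thymocyte replicate 4, the 1 thymocyte array well above background. Zbtb16, the PLZF factor of innate-like T cells, differed by -0.07, and Id2, which blocks E proteins and is needed by innate lymphoid cells, by 3.80 ± 1.01 log2 units (adjusted p = 0.121); of 6 E-protein and Id genes tested, of 7 listed, none passed. Il18r1 was also the single call among 25 cytokine receptors and Itgae that among 15 of 16 integrins listed, where Il7r, the interleukin-7 receptor, differed by 1.98 ± 0.48 log2 units (adjusted p = 0.132). The calls of Gzmb, Klrc1, Klre1, Il18r1 and Il1r1 were lost without DN1 replicate 1 (0.116 to 0.206) and without DN1 replicate 2 (0.0729 to 0.316), and Klrc1's also without thymocyte replicate 1 or 3 (0.082 and 0.0781). With the slide as a fixed block that of Il1r1 held (0.0951 to 0.266 for the others).

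Dendritic-cell and myeloid genes had calls as well. Of 20 genes of conventional dendritic cells tested, of 22 listed, 3 were higher and none lower, beside 1.00% and 0.525% of all genes. Those all-gene shares also stand beside each count of calls in the lists that follow here. Irf4, a transcription factor of dendritic and B cells, stood at 4.54 and 3.86 in DN1 cells, against -0.60, 0.56, 1.20 and 0.54 in thymocytes (4.19 ± 0.61 log2 units, adjusted p = 0.00484). Cd83, a marker of mature dendritic cells and activated B cells, had levels of 6.40 and 5.72 in DN1 cells, against 0.70, 2.25, 2.37 and 1.97 in thymocytes (4.65 ± 0.59 log2 units, adjusted p = 0.00221). Neither pair of groups overlapped. Itgae, the CD103 integrin chain, stood at 3.71 and 3.90 in DN1 cells, against 1.08, 1.06, -0.62 and 1.05 in thymocytes (3.58 ± 0.73 log2 units, adjusted p = 0.0408). The defining genes Zbtb46, Xcr1, Clec9a and Itgax differed by 0.01, -0.42, -0.61 and 0.30 and did not pass. Of 15 plasmacytoid dendritic cell genes 1 was higher, Upb1 (3.80 ± 0.76 log2 units, adjusted p = 0.0363), an enzyme of pyrimidine breakdown, while Siglech differed by 2.80. Among 18 monocyte and macrophage genes tested, of 20 listed, Ccr2 and Cybb, the catalytic subunit of the phagocyte oxidase, were higher and none lower; the median was -0.03. Cybb had levels of 1.26 and -0.38 in DN1 cells, against -7.55, -8.45, -2.56 and -8.13 in thymocytes, a difference of 7.53 ± 1.25 log2 units (adjusted p = 0.00815), and it was at least 141-fold higher without thymocyte replicate 3, the 1 thymocyte array well above background. Csf1r and Lyz2, which define macrophages, differed by 0.91 and -0.21. Of 9 Toll-like receptor genes tested, of 13 listed, Tlr3, a sensor of double-stranded RNA, was called; it entered through the DN1 arrays alone, was well above background on no thymocyte array and was at least 7.79-fold higher in DN1 cells (adjusted p = 0.0047). All of these calls were lost without DN1 replicate 1 (0.0844 to 0.303) and all but those of Irf4 and Cd83 without DN1 replicate 2 (0.0502 to 0.367). Itgae was lost without any 1 of the thymocyte arrays (0.0511 to 0.0964) and Upb1 without replicate 1, 3 or 4 (0.0652, 0.0753 and 0.0578), and with the slide as a fixed block none of the 7 held (0.125 to 0.418).

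Among markers of other cells that a sort can carry along, neutrophil genes and the haemoglobin gene Hba-a1 differed between the 2 DN1 arrays themselves. Over 12 neutrophil genes the mean level was 0.67 on DN1 replicate 1 and -3.39 on DN1 replicate 2, against -1.14 to 0.65 on the thymocyte arrays; none of the 12 was called. S100a8, an abundant neutrophil protein, had levels of 3.47 and -3.24 in DN1 cells, against 3.94, 3.05, 1.81 and 1.85 in thymocytes, and Retnlg, a neutrophil-derived hormone-like protein, -2.33 and -9.66 in DN1 cells, against -0.41, 1.12, -0.87 and 0.40 in thymocytes. DN1 replicate 1 lay within the thymocyte range for S100a8 and below it for Retnlg, and replicate 2 lay far below it for both. Hba-a1, a haemoglobin chain, had levels of 5.45 and -0.03 in DN1 cells, against 9.17, 8.47, 7.36 and 6.87 in thymocytes, while Alas2, the erythroid haem-synthesis enzyme, stood at -5.76 and -5.54 in DN1 cells, against 0.39, -3.97, 1.23 and 0.14 in thymocytes. Both DN1 arrays were below all thymocyte arrays for these erythroid genes, replicate 1 by less for Hba-a1. Of the 8 erythroid genes tested, of 13 listed, none passed. The median difference of replicate 1 minus replicate 2 was 4.40 over the neutrophil genes and 0.01 over the erythroid genes. It was 0.90 over B-cell genes and -0.24 over NK and innate lymphoid genes, beside 0.05 over all tested genes. Thymic epithelial genes (13 tested) and genes of fibroblasts and endothelium (12 tested) gave no call; Pdgfra, a fibroblast receptor, was well above background on both DN1 arrays. No thymocyte array was well above background for that Pdgfra probe, which was at least 14.4-fold higher in DN1 cells without passing (adjusted p = 0.0559), while its other probe differed by 0.30. The part of these cells in the results above was not tested.

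**Figure D4:**
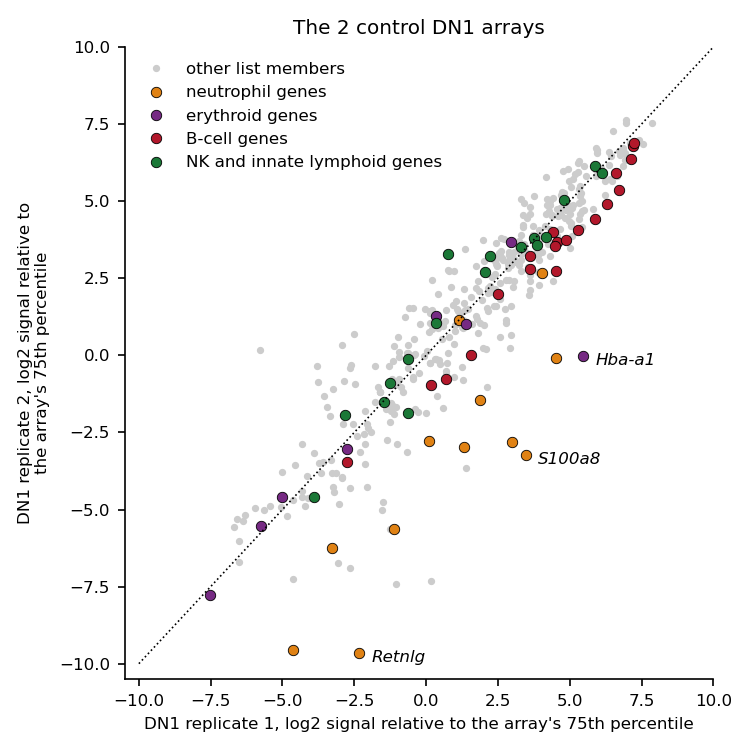
Each point is a tested list member at its log2 signal relative to the 75th percentile on DN1 replicate 1 (horizontal) and DN1 replicate 2 (vertical), with the line of equal levels dotted. Most neutrophil genes, and Hba-a1, lie well below the line, and NK and innate lymphoid genes lie along it.

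Of 15 tested genes of the double-positive stage 4 were lower in DN1 cells and none higher, beside 0.525% and 1.00% of all genes; the median was -1.92, and both DN1 arrays lay below all thymocyte arrays for 10 of the 15, beside 23.0% of all genes. Themis, a regulator of T-cell receptor signalling during selection, had levels of -3.24 and -1.10 in DN1 cells, against 1.75, 2.02, 1.43 and 1.86 in thymocytes (-3.52 ± 0.78 log2 units, adjusted p = 0.0168), lower in all 3 of its probes. Aqp11, an aquaporin, stood at 3.51 and 4.47 in DN1 cells, against 7.30, 7.23, 6.80 and 6.21 in thymocytes (-2.48 ± 0.58 log2 units, adjusted p = 0.0188). Plxnd1, the plexin that directs movement of double-positive thymocytes, stood at 0.40 and -0.16 in DN1 cells, against 3.47, 2.84, 2.96 and 3.12 in thymocytes (-2.56 ± 0.52 log2 units, adjusted p = 0.0075). The groups lay apart for each of these genes and for Rag1. Rag2 (-2.65 ± 1.02 log2 units, adjusted p = 0.169), the other recombinase subunit, did not pass. Cd8b1, the other CD8 chain, differed by -1.92 ± 0.90 log2 units (adjusted p = 0.237).

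The wider T-lineage programme was covered by further lists. Of 22 genes of the T-cell receptor complex and its signalling 1 was called, Themis, beside 1.53% of all genes called in either direction. The list of double-positive stage genes also holds Themis. Both DN1 arrays lay below all thymocyte arrays for 15, beside 23.0% of all genes, and the median was -0.90. Cd3e had levels of -0.95 and -0.07 in DN1 cells, against 3.04, 1.49, 1.56 and 0.55 in thymocytes, and Cd3d 5.95 and 6.55 in DN1 cells, against 9.23, 8.66, 7.41 and 6.85 in thymocytes. Neither overlapped, and their differences of -1.76 ± 0.64 log2 units (adjusted p = 0.116) and -1.38 ± 0.69 log2 units (adjusted p = 0.237) did not pass. Ptcra, the pre-T-cell receptor alpha chain made at the DN3 stage, differed by -2.11 ± 0.94 log2 units (adjusted p = 0.223). Among 18 T-lineage transcription factors Myb, needed for double-positive survival and for rearrangement, was lower, at 2.72 and 3.76 in DN1 cells, against 7.75, 6.20, 5.95 and 5.43 in thymocytes (-2.68 ± 0.69 log2 units, adjusted p = 0.0354), with 3 of 4 probes lower. Tcf7, an early target of Notch in the T lineage, and Lef1 differed by -1.15 ± 0.62 log2 units (adjusted p = 0.248) and -1.56 ± 0.59 log2 units (adjusted p = 0.121), and Gata3 by 0.22; none of the 3 passed. Of 9 regulatory T-cell genes tested, of 10 listed, Tnfrsf4, the OX40 receptor, was lower (-2.55 ± 0.69 log2 units, adjusted p = 0.0428), while Foxp3, their defining factor, differed by -2.23 without passing. Cd69, an activation and retention marker of cells undergoing selection and of resident lymphocytes, was the single call among 12 maturation and egress genes. It was higher, at 5.43 and 4.67 in DN1 cells, against 3.35, 2.73, 2.49 and 2.66 in thymocytes (2.65 ± 0.52 log2 units, adjusted p = 0.0418). Without DN1 replicate 1 the calls of Themis, Aqp11, Plxnd1, Rag1, Myb and Tnfrsf4 were all lost (0.0999 to 0.43), and without DN1 replicate 2 that of Themis held (0.0785 to 0.309 for the others). Thymocyte replicates 1 and 2 each cost Myb, Rag1 and Tnfrsf4 (0.0658 to 0.0982 and 0.0507 to 0.0966), replicate 3 cost Myb and Rag1 (0.0571 and 0.0507) and replicate 4 cost Tnfrsf4 (0.0562). Themis differed by -2.37 without DN1 replicate 1 and by -4.64 without DN1 replicate 2. Cd69 was lost without any 1 of DN1 replicates 1 and 2 or thymocyte replicates 2, 3 and 4 (0.0671 to 0.482). None of the 6 lower genes held with the slide as a fixed block (0.304 to 0.547), and Cd69 did not hold there either.

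Notch genes did not pass the test in either direction. Of 12 receptors and targets none was called, and the median was 0.04. Notch1, the receptor that commits progenitors to the T lineage, had levels of 0.55 and 0.52 in DN1 cells, against 3.34, 2.86, 1.79 and 1.20 in thymocytes (-1.35 ± 0.79 log2 units, adjusted p = 0.315). Notch3 stood at 1.07 and 1.19 in DN1 cells, against 3.06, 3.65, 3.62 and 3.12 in thymocytes (-1.82 ± 0.74 log2 units, adjusted p = 0.165). Both DN1 arrays lay below all thymocyte arrays for these receptors. Hes1, a direct target, had levels of 1.07 and 1.50 in DN1 cells, against -0.14, -0.50, 1.53 and -1.38 in thymocytes, where thymocyte replicate 3 lay above both DN1 arrays (1.82 ± 0.71 log2 units, adjusted p = 0.382). In control DN cells, which hold the later CD25+ stages too, Notch3 stood at 4.31, 5.84 and 5.71 and Ptcra at 2.85, 4.06 and 3.99, both above the DN1 levels; that difference was not tested here.

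**Figure D5:**
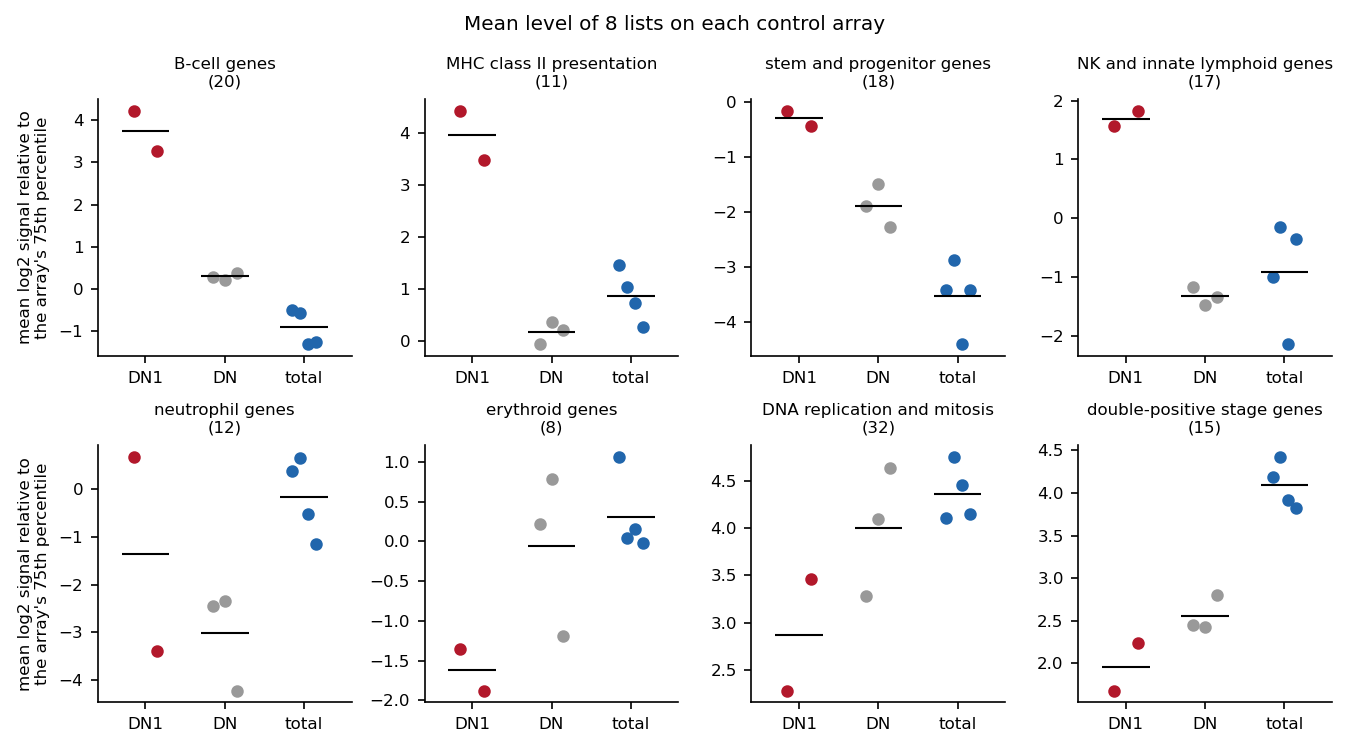
Points are single control arrays of DN1 cells (red), DN cells (grey) and total thymocytes (blue), each at the mean of its list members' log2 signals relative to the array's 75th percentile, and bars are means over arrays. For B-cell, class II, stem and progenitor, and NK genes both DN1 points lie above all DN and thymocyte points, and for double-positive stage genes both lie below them.

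Of 32 genes of DNA replication and mitosis tested, of 33 listed, 1 was lower and none higher, beside 0.525% and 1.00% of all genes. The median was -1.12, and DN1 arrays lay below all thymocyte arrays for 18, beside 23.0% of all genes. The called gene was Kif11, the motor that separates spindle poles, at 0.93 and 1.64 in DN1 cells, against 4.07, 4.27, 4.02 and 4.12 in thymocytes (-2.42 ± 0.68 log2 units, adjusted p = 0.0482), with 2 of 3 probes lower. Top2a, the DNA topoisomerase of dividing cells, had levels of -0.46 and 1.52 in DN1 cells, against 4.27, 3.37, 4.05 and 2.83 in thymocytes, and Mki67, the Ki-67 antigen, 4.75 and 5.99 in DN1 cells, against 7.95, 8.07, 7.32 and 6.65 in thymocytes. Their differences of -2.69 ± 0.81 log2 units (adjusted p = 0.0727) and -1.71 ± 0.70 log2 units (adjusted p = 0.164) did not pass. DN1 replicate 1 was the lower of the DN1 arrays for all 3, and the mean level of the list was 2.28 there and 3.46 on replicate 2, against 4.11 to 4.75 in thymocytes. Kif11 did not hold with the slide as a fixed block (limma adjusted p = 0.44). The call of Kif11 was lost without any 1 of the 6 arrays (0.0682 to 0.457).

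Survival genes were divided. Of 13 BCL2-family genes tested, of 16 listed, 1 was higher and 2 were lower, beside 1.00% and 0.525% of all genes. Bcl2l1, whose BCL-XL product keeps double-positive thymocytes alive, had levels of -0.81 and -1.20 in DN1 cells, against 1.16, 1.23, 1.13 and 1.31 in thymocytes (-1.80 ± 0.48 log2 units, adjusted p = 0.0285). Bmf, a pro-apoptotic BH3-only gene, stood at 2.22 and 2.15 in DN1 cells, against 6.18, 4.32, 4.92 and 4.31 in thymocytes (-2.34 ± 0.64 log2 units, adjusted p = 0.0408) with 1 probe of either sign. Both were lower in DN1 cells with no overlap. Bcl2a1b, a pro-survival gene with near-identical copies that a probe may not part, was higher, at 5.34 and 5.41 in DN1 cells, against 1.39, 1.01, 1.72 and 2.71 in thymocytes (4.08 ± 0.57 log2 units, adjusted p = 0.0043). Bcl2, the founding member, differed by 0.72 and did not pass. With the slide as a fixed block none of the 3 called genes held (limma adjusted p 0.118 to 0.552). All 3 calls were lost without DN1 replicate 1 (0.0937 to 0.317) and without DN1 replicate 2 (0.0596 to 0.279), and those of Bcl2l1 and Bmf without thymocyte replicate 1, 2 or 3 (0.0507 to 0.0832).

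Immediate-early, heat-shock and interferon genes had high medians and few calls. Of 16 immediate-early and heat-shock genes 2 were higher and none lower, beside 1.00% and 0.525% of all genes. The median was 2.23, and DN1 arrays lay above all thymocyte arrays for 13, beside 9.11% of all genes. Atf3, a stress-induced transcription factor, had levels of 1.75 and 1.28 in DN1 cells, against -2.19, -2.85, -3.28 and -1.91 in thymocytes (4.49 ± 0.56 log2 units, adjusted p = 0.00207). Ier3 stood at -1.60 and -1.18 in DN1 cells, against -7.24, -4.45, -5.36 and -4.09 in thymocytes (4.30 ± 0.91 log2 units, adjusted p = 0.0434). Fos and Egr1, induced within minutes of activation or handling, differed by 2.37 ± 0.67 log2 units (adjusted p = 0.183) and 3.49 ± 1.13 log2 units (adjusted p = 0.213) and did not pass. DN1 cells had been stained and sorted and total thymocytes had not, and the part of that step in these genes was not tested. Of 20 interferon-response genes tested, of 21 listed, none passed, with a median of 1.72 and 8 above all thymocyte arrays, beside 9.11% of all genes. With 1 array left out, Atf3 lost its call only without DN1 replicate 1, and Ier3 kept its call only without thymocyte replicate 4. With the slide as a fixed block both lost their calls (limma adjusted p 0.142 to 0.45, a range that also covers Cd69).

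The largest differences among genes measured on every array reached beyond the lists. Scd1, the desaturase that makes monounsaturated fatty acids, had levels of 3.98 and 3.08 in DN1 cells, against -4.52, -3.97, -4.26 and -2.93 in thymocytes, higher by 7.86 ± 0.72 log2 units (adjusted p = 0.000146). Chst3, a sulfotransferase of chondroitin chains, stood at 4.60 and 3.22 in DN1 cells, against -1.34, -2.08, -3.93 and -4.25 in thymocytes (7.22 ± 0.83 log2 units, adjusted p = 0.000632). Pxdc1, a PX-domain protein, stood at 4.14 and 3.78 in DN1 cells, against -4.28, -2.92, -2.44 and -1.52 in thymocytes (7.17 ± 0.83 log2 units, adjusted p = 0.000632). These 3 kept their calls without any 1 array, though the other Scd1 probe differed by 0.55. Ltk, a receptor tyrosine kinase, was higher by 6.65 ± 1.01 log2 units (adjusted p = 0.00494) and Casp4, an inflammatory caspase, by 6.16 ± 0.97 log2 units (adjusted p = 0.00683). Irak2, a kinase of Toll-like and interleukin-1 receptor signalling, was higher by 6.10 ± 0.90 log2 units (adjusted p = 0.00456). The 12 largest also held Fcer2a, Ccr6, Tnfrsf13c, Hhex, H2-DMb2 and Cxcr5 from the lists. Of genes well above background on both DN1 arrays and on no thymocyte array, which entered the test through the DN1 arrays alone, the largest bounds were at least 165-fold for Cd55b (adjusted p = 0.00456), which encodes a complement regulator and resembles Cd55. They were at least 147-fold for Nlrc4 (0.000146), an inflammasome sensor, and at least 134-fold for Zbtb32 (0.00047), a transcriptional repressor of lymphocytes. Nlrc4 levels were 1.19 and -0.80 in DN1 cells, against -7.97, -8.82, -8.52 and -9.56 in thymocytes, and Zbtb32 levels 1.01 and -0.90 in DN1 cells, against -8.06, -8.86, -8.09 and -9.55 in thymocytes. Rnf128, a ubiquitin ligase linked to T-cell anergy, Nxnl2, a thioredoxin-like protein, and Gpam, an acyltransferase of triglyceride synthesis, followed with at least 41.2-fold, 32.5-fold and 32.4-fold (adjusted p = 0.0392, 0.0141 and 0.0151). Of these 18 genes 10 lost their call without DN1 replicate 1 (0.0937 to 0.281) and 7 without DN1 replicate 2 (0.0502 to 0.276); Rnf128 lost it without any 1 array (0.0591 to 0.281). With the slide as a fixed block Scd1, Chst3, Tnfrsf13c, Nlrc4 and Zbtb32 of the 18 held (0.0523 to 0.27 for the others).

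On the lower side the largest differences were of genes with no common list. Fn3k, a kinase that repairs glycated proteins, had levels of -6.22 and -6.80 in DN1 cells, against 3.75, 2.81, 1.50 and 1.40 in thymocytes (-8.47 ± 1.19 log2 units, adjusted p = 0.00156), with its 2 probes of opposite sign. P2rx1, an ATP-gated ion channel, stood at -3.37 and -3.26 in DN1 cells, against 1.96, 1.80, 1.34 and 1.99 in thymocytes (-4.68 ± 0.75 log2 units, adjusted p = 0.00294). Chrna9, a nicotinic acetylcholine receptor subunit, stood at 0.38 and 0.86 in DN1 cells, against 6.14, 6.13, 5.57 and 4.88 in thymocytes (-4.65 ± 0.94 log2 units, adjusted p = 0.0117). All probes of P2rx1 and Chrna9 were lower. Insl5, an insulin-like peptide, had levels of -0.68 and 1.61 in DN1 cells, against 5.75, 5.21, 4.93 and 4.45 in thymocytes (-4.21 ± 0.74 log2 units, adjusted p = 0.00461). Tctn1, a protein of the ciliary base, stood at -1.04 and -2.05 in DN1 cells, against 4.69, 3.34, 3.31 and 1.89 in thymocytes (-4.44 ± 0.76 log2 units, adjusted p = 0.0043). Xrra1, Zfp286, Nyap1 and Igsf23 were lower, differing by -4.55, -4.31, -4.13 and -4.09 log2 units (adjusted p = 0.00992, 0.0362, 0.0462 and 0.044). Evi5l, Hmgxb4 and Ift81, at -4.60, -4.34 and -4.21 (0.00762, 0.00512 and 0.0117), each had probes of both signs, and Hmgxb4 differed by 0.80 when its probes were averaged. Of the 147 genes well above background on no DN1 array 2 were called lower: the transcripts 4833419E13Rik, at least 11.5-fold lower (adjusted p = 0.0113), and LOC665155, at least 4.53-fold lower (0.0354). Fn3k kept its call without any 1 array, the 11 others lost it without DN1 replicate 1 (0.0518 to 0.301), and 7 lost it without DN1 replicate 2 (0.0802 to 0.349). Leaving out those replicates moved Xrra1 to -2.79 and -6.28 and Insl5 to -2.98 and -5.40. Nyap1 and Igsf23 lost it without any 1 array (0.0548 to 0.317) and Zfp286 without thymocyte replicate 2, 3 or 4 (0.0667 to 0.0784). Only Tctn1 of the 12 held with the slide as a fixed block (0.0568 to 0.434 for the others).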

How the data were processed

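RNA of C57BL/6 mouse thymus was measured on 1-colour Agilent arrays after 2 rounds of amplification and Cy3 labelling, per the labels' protocols. The authors deposited scanner intensities: Agilent Feature Extraction 9.5.3.1, per the file headers, had subtracted background from each spot to give the processed signal used here. A table of ratios deposited by the authors, described only by its values, served as an alternative. Each array's processed signals were put on the log2 scale and its 75th percentile, taken without control spots, was subtracted. Outlier spots were left out, the brightest probe stood for a gene, and the 21159 genes detected (well above background) on 2 or more of the 6 arrays entered the test. Names came from the RefSeq GRCm38.p6 tables by accession (26215 probes), symbol (7270) or older symbol (3073); 6868 kept the name in the file.

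The test was limma 3.58.1 in R 4.3.3 (6 group means over 18 arrays; contrast DN1 minus thymocytes, both control), with Benjamini-Hochberg adjustment over all tested genes, and each ± in the text is the standard error of that fit. Genes named outside the lists were the 12 largest differences each way among called genes well above background on all 6 arrays without overlap, and the 6 largest bounds. A bound sets the group mean of the bright arrays against, for each dim array, the higher of its own signal and the lowest level well above background there. That lowest level is not a measured detection limit. The members and lists were chosen with earlier results of these data known. On simulated data with 200 changed genes among 21159, 8%, 40%, 60% and 94% of changes of 2, 3, 4 and 6 log2 units were recovered, with 6 false among 107 calls. Those simulated arrays had independent noise, the same spread of a gene in all groups, no slide effect and no median shift. In the data no slide held both populations and the median shift was -0.41, so these rates may not carry over. The number of arrays limits the precision. Alternatives changed the normalization, background correction, filter, probe rule, arrays and blocks. The replicate numbers were not treated as pairs. Anti-DLL4 comparisons were not analysed here, and some list members are counted but not reported singly here.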

Additional observations from a re-analysis of the deposited data

Results flagged for a closer look

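Of 120 genes described by array, 6 had 1 thymocyte array apart from the other 3 by Dixon's criterion for 4 samples, which chance meets in about 1 group in 20. The measure is the gap to the nearest array as a share of the group's whole range. Fcmr, the Fc receptor for IgM, had a share of 0.927: replicate 2 was at 3.17 and the others at 2.24 to 2.31. Itgae, the CD103 chain, had 0.983, with replicate 3 at -0.62 and the others at 1.05 to 1.08. Il18r1, the interleukin-18 receptor, had 0.834, with replicate 2 at -3.88, the lowest. Cybb, of the phagocyte oxidase, had 0.847, with replicate 3 at -2.56 and the others at -8.45 to -7.55. Mef2c, a progenitor factor, had 0.97, with replicate 4 at -1.92 and the others at -8.09 to -7.90. Casp4, an inflammatory caspase, had 0.886, with replicate 2 at -0.57 and the others at -4.34 to -3.91. Every DN1 level of these 6 genes lay above all 4 thymocyte levels, the array standing apart included.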

How the results depend on the processing

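The calls of 212 genes higher and 111 lower in DN1 cells depended most on the arrays that entered. Leaving out 1 array gave 23 to 210 higher and 8 to 139 lower, the fewest without DN1 replicate 1. The 6 arrays alone gave 123 higher and 24 lower, leaving out both dimmer thymocyte arrays gave 130 and 22, and the slide as a fixed block 14 and 2. These are totals and include genes that the main fit did not call. Of the 323 main calls 84 held on the 6 arrays alone, 129 without both dimmer thymocyte arrays and 15 with the slide block. Leaving out 1 thymocyte array kept 205 to 273 of them. Replicates 1 and 2 of each population gave 0 and 0 with the replicate block (4317 genes at an unadjusted limma p under 0.05). They gave 0 and 0 without a block (4190), an alternative added after seeing the data. For same-numbered samples, the deviations from the mean of their own population correlated at 0.144 and 0.171, and with 2 numbers this pairs nothing. An intensity trend with robust variance gave 264 and 198. Quantile normalization (260 and 99), scaled normalization (199 and 114), normexp (187 and 140), no filter (186 and 79), a filter of 4 of 6 arrays (178 and 115), the mean of probes (233 and 93), the slide as a random block (212 and 109) and the authors' deposited table (228 and 113) stayed within 1.5 times of the main counts. The share higher among calls was 72.4% with quantile normalization and 57.2% with normexp, beside 65.6%, and the median difference of all genes was -0.26 and 0.38, beside -0.41. The direction turned for Fcer1g with normexp (-0.16), for Hmgxb4 with the mean of probes (0.80), and for S100a8 with the slide as a fixed block (0.84) and without DN1 replicate 2 (1.18, against -5.40 without replicate 1); the cause was not tested. Of 85 named calls, 10 held under the slide block.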

Other observations

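The families below were chosen after their values were seen. Of 35 immunoglobulin gene names, each read by its brightest probe, 1 was higher, Igkv4-91, and none lower, beside 1.00% and 0.525% of all genes. Both DN1 arrays lay above all thymocyte arrays for 11, beside 9.11% of all genes, and the median was 2.01 log2 units. Igkv4-91 was well above background on no thymocyte array and entered the test through the DN1 arrays alone. Its bound was at least 8.3-fold (limma adjusted p = 0.0222). Its call was lost without thymocyte replicate 1 or 3 (0.0568 and 0.0507) and without either DN1 replicate. Ighm, Igh-VJ558 and Ighg differed by 1.10, 1.51 and -0.52 and did not pass (limma adjusted p = 0.664, 0.748 and 0.657). Of 16 Ly49 receptor genes, which encode the class I sensing receptors of mouse NK cells, 6 were higher in DN1 cells and none lower, beside 1.00% and 0.525% of all genes. Their median was 3.41 log2 units, and both DN1 arrays lay above all thymocyte arrays for 12, beside 9.11% of all genes. Klra1 had levels of -1.75 and -1.66 in DN1 cells, against -6.18, -5.82, -6.81 and -5.85 in thymocytes (4.88 ± 0.61, limma adjusted p = 0.00205), and kept its call without any 1 array, while the 5 others lost theirs without DN1 replicate 1 (0.0868 to 0.169) or DN1 replicate 2 (0.119 to 0.315). Without thymocyte replicate 1 Klra8 and Klra9 were lost (0.0682 and 0.0553), and Klra8 also without replicate 2 or 3 (0.0617 and 0.0505). These genes are near copies, and a probe may read several. With quantile normalization Klra1 and Klra16 held and the 4 other calls were lost (limma adjusted p 0.0548 to 0.128). None of the 6 held with the slide as a fixed block (0.0951 to 0.359).

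Of 5 subunits looked at in the NADPH oxidase that holds Cybb, 2 were higher and none lower, beside 1.00% and 0.525% of all genes. Besides Cybb this was Ncf4, a cytosolic subunit (3.30 ± 0.58, limma adjusted p = 0.018). Cyba, Ncf1 and Rac2 differed by 1.57, 0.85 and -0.41 and did not pass (0.377, 0.89 and 0.562). Of 12 inflammasome genes 3 were higher and none lower, beside 1.00% and 0.525% of all genes: Nlrc4, Casp4 and Casp1 (3.57 ± 0.71, limma adjusted p = 0.0358). The family's median was 0.36, and Pycard, the shared adaptor, differed by -1.44 ± 0.58 (0.141). Without DN1 replicate 1 only Nlrc4 of these 3, Ncf4 and Cybb held (0.174 to 0.406), and without DN1 replicate 2 Nlrc4 and Casp4 (0.0502 to 0.144). Casp1 was also lost without thymocyte replicate 1, 2 or 3 (0.0523, 0.0689 and 0.0552) and Ncf4 without replicate 3 (0.0507). With the slide as a fixed block Nlrc4 held, and Casp4, Casp1, Ncf4 and Cybb did not.

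Of 4 T-cell receptor gamma gene names 1 was higher, Tcrg-C (2.68, limma adjusted p = 0.0408), beside 1.00% of all genes. Of 7 alpha gene names 1 was lower, Trav7d-6 (-4.51, 0.00391), beside 0.525% of all genes. Both lost their calls with normexp (0.0643 to 0.778), with the slide as a fixed block (0.182 to 0.506) and without DN1 replicate 2. Tcrg-C was also lost without DN1 replicate 1 (0.247) and thymocyte replicates 1, 3 or 4 (0.0568, 0.0964 and 0.0718).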
